A study of Musca domestica with 10 samples.

Results

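The last step of a staged series of house fly (Musca domestica) embryos was examined, dorsal closure against germ band extension. It was represented by 4 of the 10 libraries of the series, chosen by their labelled stage: dorsal closure replicates 1 and 2 (DC1, DC2) and germ band extension replicates 1 and 2 (GBE1, GBE2). All libraries were made from RNA of whole embryos with no treatment named in the labels, and the labels give 100 embryos of each stage and 2 biological replicates per stage. They do not state a strain or an age in hours, nor whether the 2 replicates of a stage split those embryos. The other 6 libraries, of syncytial blastoderm (SB), cellular blastoderm (CB) and gastrula (G), entered the fit that set the spread between replicates and served to trace each gene back to earlier stages.

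In fly embryos, germ band extension is the stage at which the trunk lengthens and folds back along the dorsal side while segments and organ primordia are laid out. By dorsal closure the germ band has shortened again and the lateral epidermis moves up over the amnioserosa to seal the back, while muscle, gut, nervous system and cuticle-forming epidermis differentiate. Much of the cell division of the embryo is over by then in the fruit fly Drosophila melanogaster. The files name genes only by MDOA identifiers, with no gene names beside them. Genes are therefore described here by level, by size of change and by earlier course, and the stage labels could not be checked against marker genes. In RNA from whole embryos, fewer cells of a type and less RNA per cell cannot be told apart.

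Reads assigned to genes numbered 81097276 in DC1 and 44432718 in DC2, against 74112669 in GBE1 and 52767660 in GBE2. On the scaled library sizes, 3 counts corresponded to 0.0357 and 0.0724 CPM (a gene's reads relative to the scaled library size) in DC1 and DC2 and to 0.0387 and 0.0653 CPM in GBE1 and GBE2. More genes reached 1 CPM at dorsal closure (9728 and 9249 of 15803) than at germ band extension (7982 and 8235). Reads outside the annotated genes made up 17.4% and 24.98% of DC1 and DC2, against 17.1% and 23.9% of GBE1 and GBE2, so this share differed more between replicate numbers than between the stages. Log2 CPM correlated across genes at r = 0.85 between the DC libraries and at r = 0.895 between the GBE libraries.

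Dorsal closure was marked by large rises of genes that had been nearly silent and by smaller falls of genes that had been abundant. Of the 11286 genes tested, 1084 were higher at dorsal closure (9.6%) and 852 were lower (7.55%) in edgeR's quasi-likelihood test at a Benjamini-Hochberg adjusted p under 0.05, together 17.2%. The typical member of the first group was at 48.7 and 21.6 CPM in DC1 and DC2, against 0.194 and 0.37 CPM in GBE1 and GBE2 (medians over the 1084 genes). The typical member of the second was at 10.2 and 12.2 CPM in DC1 and DC2, against 89.5 and 57 CPM in GBE1 and GBE2 (medians over the 852 genes). The 1084 genes took 18.9% and 8.65% of the gene reads of DC1 and DC2, against 0.719% and 0.819% in GBE1 and GBE2. For the 852 genes the shares were 2.29% and 2.62% at dorsal closure, against 18.1% and 10.9% at germ band extension. In each of the 1936 genes called, both DC libraries lay on the same side of both GBE libraries; the test favours such genes, and 6669 of the 11286 genes tested (59.1%) did so.

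**Figure D1:**
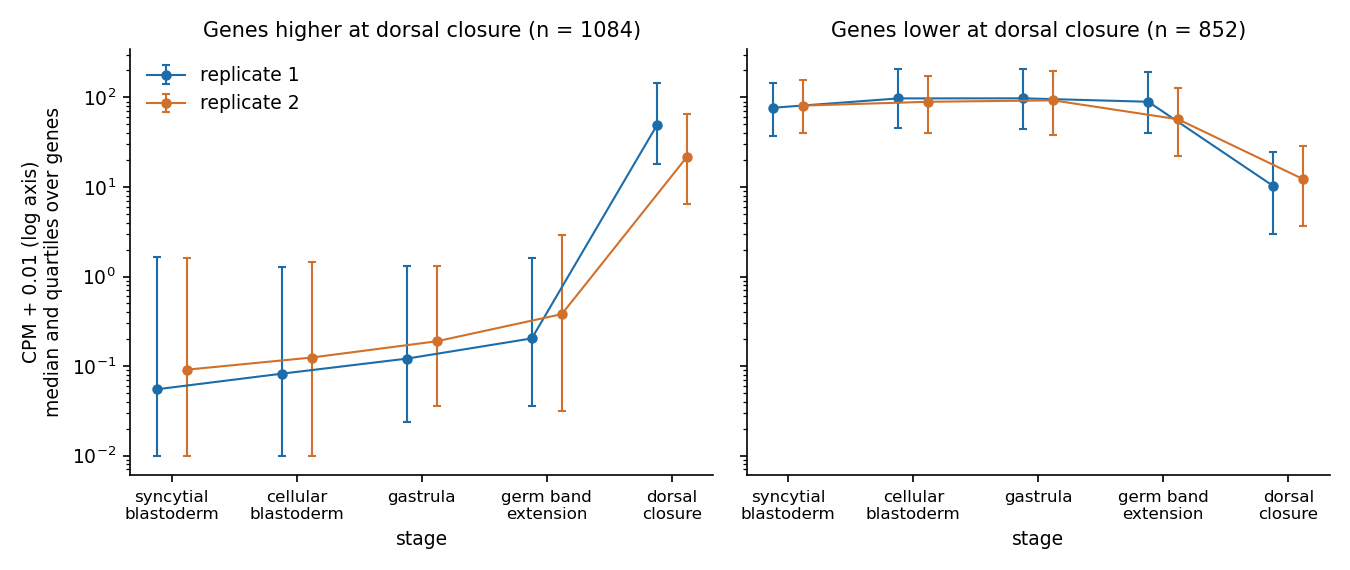
Median CPM (points) and quartiles (bars) over the genes called higher (left, n = 1084) and lower (right, n = 852) at dorsal closure, in each of the 10 libraries by stage, on a log axis of CPM + 0.01. The medians of the first group stay below 0.4 CPM up to germ band extension and reach 48.7 and 21.6 CPM at dorsal closure, while those of the second lie at 57 to 97.8 CPM up to germ band extension and at 10.2 and 12.2 CPM at dorsal closure.

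The number of calls varied with the model and with single libraries. With the replicate number as a block, 2274 genes were higher and 2265 lower (20.1% each, together 40.2%). Without DC1 the numbers were 182 higher and 91 lower, and without GBE1 they were 259 and 141. The genes lower at dorsal closure numbered 471 without DC2, 431 without G replicate 2 and 564 without SB replicate 2. Fitting only the 4 libraries compared gave 421 higher and 22 lower. DESeq2 called 2236 higher and 1187 lower and limma-voom 2202 and 1101, both without the block. DESeq2's size factors in edgeR gave 1347 higher and 573 lower, and 2742 and 1576 with the block. Under these factors the log2 fold change had a median of 0.39 over all genes, against 0.01 with TMM scaling, so small changes are to be read relative to that shift.

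Rises and falls differed in size. The fitted log2 fold change had a median of 6.85 among the 1084 genes that rose and of -2.73 among the 852 that fell. Taken as the log2 ratio of mean CPM, with the 127 risen genes that had 0 reads in both GBE libraries at their lower bound (3 counts per library), the median rise was 6.45. The fit placed 410 of the rises (37.8%) at 256-fold or more and 461 (42.5%) at 16 to 256-fold. Of the falls, 19 (2.23%) were 256-fold or more and 147 (17.3%) 16 to 256-fold, and the largest group was 517 (60.7%) at 4 to 16-fold. At 2 to 4-fold stood 24 rises and 169 falls. These ranges use the fitted folds. For the 127 risen genes with 0 reads in both GBE libraries, edgeR's prior count sets the fitted size. The same holds for 16 fallen genes with 0 reads in both DC libraries. With these at their bound the median fall was -2.72, and the ranges were not recomputed at the bound. Low starting levels allow larger folds, and the rises started lower than the falls ended. All of these sizes come from the fit without the replicate block. With the block, the median fitted log2 fold change was 5.37 among its 2274 rises and -1.95 among its 2265 falls.

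**Figure D2:**
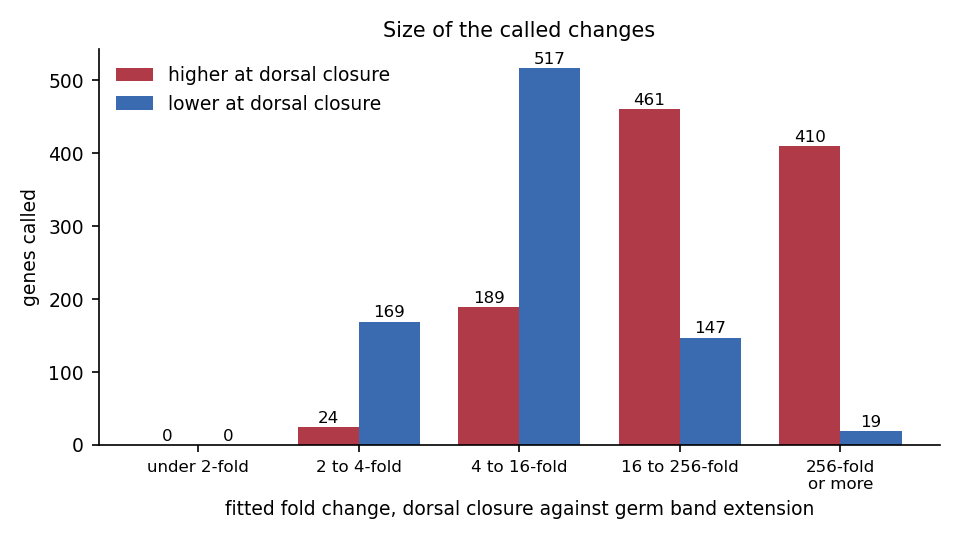
Number of genes called higher (red) and lower (blue) at dorsal closure in each range of fitted fold change against germ band extension. The rises are most often 16-fold or more (461 and 410 genes), and the falls are most often 4 to 16-fold (517 genes). Genes with no reads in both libraries of the lower stage are placed by a fitted fold that edgeR's prior count sets.

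Many of the risen genes had been near silence. Of the 1084, 652 (60.1%) were below 1 CPM in both GBE libraries, against 23.1% of all genes tested, and 592 (54.6%) were below 1 CPM in all 8 libraries before dorsal closure, against 20.2%. Genes this low passed the filter on low counts mainly through their dorsal closure level, so these shares are a description. The mean CPM of 22 risen genes was 1000 or more at dorsal closure, that of 278 was between 100 and 1000, and that of 578 was between 10 and 100. At the other end, 203 of the rises went no further than 1 to 10 CPM with a germ band extension mean under 1 CPM.

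A stricter description of late switch-on takes the genes below 1 CPM in both GBE libraries and at or above 10 CPM in both DC libraries. There were 326 such genes. This rule uses the levels compared, so their calls are given without further reading: 291 were called higher, against 9.6% of all genes tested, and all 326 were with the block. They had median levels of 57.8 and 28.5 CPM in DC1 and DC2, against 0.0774 and 0.218 CPM in GBE1 and GBE2. Together they took 6.13% and 2.17% of the gene reads of DC1 and DC2, against 0.00534% and 0.00842% in GBE1 and GBE2. In its lower DC library, a switch-on gene stood at 10 to 100 CPM in 282 cases, at 100 to 1000 CPM in 41 and at 1000 CPM or more in 3.

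Nearly all of the 326 had also been silent before germ band extension. In 293 of them every library of SB, CB and G was below 1 CPM. The rule asks for silence at germ band extension, and such genes had mostly been silent earlier too. Of all 2611 genes tested that were below 1 CPM in both GBE libraries, 2282 were so in every earlier library, a similar share. The median of all 326 ran from 0 and 0.0203 CPM at SB, through 0 and 0.0229 CPM at CB, to 0.0416 and 0.0512 CPM at G. There were 3 exceptions at or above 10 CPM in both SB libraries, and 30 genes had intermediate levels before. The switch-on count was larger without DC2 (637 genes) and without GBE2 (570 genes), since both libraries of a stage must pass the floor.

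Genes at the highest levels reached them from almost nothing in some cases. At or above 1000 CPM in both DC libraries stood 118 genes, and 5 of these were under 10 CPM in both GBE libraries. Their levels were 1192 to 2602 CPM in DC1 and 1030 to 4617 CPM in DC2, against 0.323 to 0.878 CPM in GBE1 and 0.196 to 4.96 CPM in GBE2. This rule uses the levels compared and fixes that the groups do not overlap, so nothing is read from the calls: all 5 were called higher with and without the block, against 9.6% and 20.1% of all genes tested.

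The low germ band extension values of such genes carry a limit that shows in the other libraries. Below 1 CPM in all 6 libraries of SB, CB and G but at or above 300 CPM in both DC libraries were 27 genes, a rule set after the data were seen. In the replicate 1 libraries, 25 of the 27 had 0 reads at SB, 19 at CB and 14 at G. In the replicate 2 libraries, 0 of the 27 had 0 reads at SB, CB or G, although replicate 1 was deeper at CB and G. The replicate 2 levels at these stages had medians of 0.0214%, 0.0208% and 0.0343% of the gene's own level in DC2. At germ band extension the medians were 0.0285% of the DC1 level in GBE1 and 0.34% of the DC2 level in GBE2. The part of reads from other libraries in these traces was not tested, and the folds of genes that start this low depend on them.

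A smaller share of the rises were boosts of genes already in use. At or above 10 CPM in both GBE libraries stood 103 of the 1084 genes that rose (9.5%), against 5261 of the 11286 genes tested. Of the 103, 91 were also at or above 10 CPM in both SB libraries, against 5868 of the 11286. The medians of the 103 were 70.6 and 69.5 CPM at SB, 43.6 and 44.4 CPM at CB, 32.4 and 27.3 CPM at G and 32.1 and 36.2 CPM at GBE. At dorsal closure they reached 310 and 148 CPM. So the boosted genes had their lowest medians at gastrula and germ band extension, and their dorsal closure medians exceeded those of every earlier stage. The choice of genes called higher favours a low level at germ band extension and a high one at dorsal closure. Their median fitted log2 fold change was 2.55. All 103 were called with the block, as were all 1084 genes called higher, against 20.1% of all genes tested.

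The share of falls that ended near silence was close to the share of all genes tested at that level. Of the 852 genes that fell, 395 (46.4%) remained at or above 10 CPM in both DC libraries, against 5451 of the 11286 genes tested. Below 1 CPM in both DC libraries were 77 (9.04%), against 1287 of the 11286. Both shares were near those of all genes tested. Most of the falls had been present throughout. At or above 10 CPM in all 8 earlier libraries were 691 of the 852 (81.1%), against 39.9% of all genes tested, which include genes too low to fall. The medians of these 691 genes were 91.8 and 97.3 CPM at SB, 122 and 107 CPM at CB, 122 and 122 CPM at G and 109 and 69.5 CPM at GBE. At dorsal closure they were 13.5 and 16.3 CPM, a median fitted log2 fold change of -2.53. Presence up to germ band extension and a drop at the last step were fixed by how these genes were chosen. Their medians were already lower in GBE2 than in GBE1 and in both G libraries.

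Complete switch-off was rare by the mirror image of the switch-on rule. Only 10 genes were at or above 10 CPM in both GBE libraries and below 1 CPM in both DC libraries. All 10 were called lower, with and without the block, against 7.55% of all genes tested without it; the rule uses the levels compared. Their median was 0.149 and 0.676 CPM in DC1 and DC2, against 43.3 and 14.6 CPM in GBE1 and GBE2. By earlier course, 5 of the 10 had switched on after the syncytial blastoderm, 4 had been at or above 10 CPM from the start, and 1 was intermediate. The count was 43 without DC2, 42 without GBE2, 17 without DC1 and 6 with DESeq2's size factors.

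The earlier stages give groups whose rules use no level at germ band extension or dorsal closure. The SB, CB and G libraries behind these rules also set the spread in the fit, so the calls are not independent of them. Early-onset genes stood below 1 CPM in both SB libraries and reached at least 10 CPM in both CB or both G libraries. Of these 291 genes, all of which were tested, 54 fell at dorsal closure (18.6%) and 5 rose (1.72%), against 7.55% and 9.6% of all genes tested. Their medians were 23.1 and 22.7 CPM in DC1 and DC2, against 46.9 and 46.9 CPM in GBE1 and GBE2. Below 1 CPM in both DC libraries were 27 of the 291, while 171 stood at or above 10 CPM in both. These counts set no condition on the level at germ band extension, so the 27 are not all late losses. The switch-off rule, which sets one, was met by 5 early-onset genes. The median fitted log2 fold change was -0.84, against 0.01 over all genes tested. With DESeq2's size factors it was -0.46, against 0.39.

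Genes present from the start, at or above 10 CPM in both SB libraries, numbered 5868, all of them tested. At dorsal closure 747 fell (12.7%) and 201 rose (3.43%). They had medians of 32 and 28.7 CPM in DC1 and DC2, against 50.3 and 41.7 CPM in GBE1 and GBE2. Their median fitted log2 fold change was -0.56 with TMM scaling and -0.18 with DESeq2's size factors, so the size of the typical drop depended on the scaling. With the block, 35.1% of the early-onset genes and 33.1% of the genes present from the start fell, against 20.1% of all genes tested. The background over all genes includes those silent before germ band extension, which could hardly fall and which held most of the rises. Leaving these out, 392 of 8427 genes rose (4.65%) and 850 fell (10.1%), and with the block 11.7% rose and 26.7% fell, so falls exceeded rises there too. Falls outnumbered rises in both groups under all 4 scalings tried (TMM, DESeq2's size factors, total counts, upper quartile). For the same groups of genes, DESeq2's size factors gave 8 rises and 44 falls of early-onset genes and 320 rises and 490 falls of genes present from the start. The early-onset falls numbered 8 without DC1, 17 without GBE1 and 35 without DC2. Among genes present from the start, the falls numbered 79, 116 and 419 without these libraries in turn, and the rises 38 and 41 without DC1 and GBE1.

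**Figure D3:**
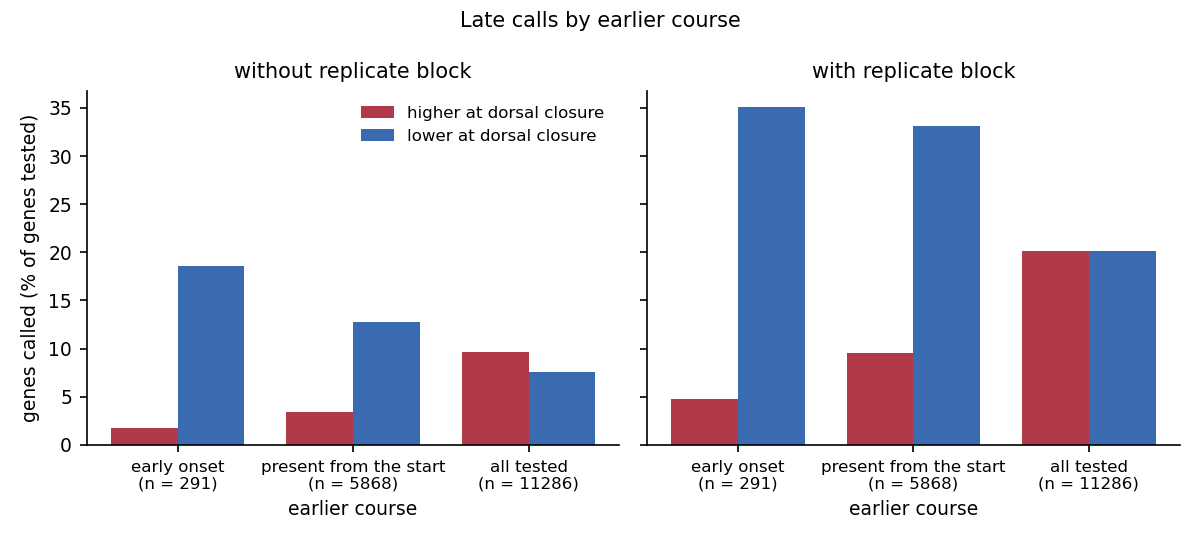
Share of genes called higher (red) and lower (blue) at dorsal closure, in percent of genes tested, among early-onset genes, genes present from the start and all genes tested, without (left) and with (right) the replicate number as a block. Falls exceed rises in both groups, at 18.6% against 1.72% and 12.7% against 3.43% without the block, whereas over all genes tested, those silent before included, rises were 9.6% and falls 7.55%.

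Of the 7372 genes below 1 CPM in all 6 libraries of SB, CB and G, 2859 passed the filter on low counts and 692 were called higher. Members of this group passed the filter largely through their later levels, so the share called is not read as a result. In all, 538 of the 7372 reached 10 CPM in both DC libraries, and 5217 were still below 1 CPM in both. The rises called in this group numbered 110 without DC1 and 177 without GBE1. The remaining 2272 genes had intermediate early levels, of which 186 rose (8.2%) and 49 fell (2.16%) among 2268 tested, against 9.6% and 7.55% of all genes tested.

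The same-numbered pairs of libraries changed in the same direction but by different amounts. On the scale of log2(CPM + 1), the median rise of the 1084 genes called higher was 4.44 in pair 1 (DC1 against GBE1) and 3.05 in pair 2 (DC2 against GBE2). The median change of the 852 genes called lower was -2.83 in pair 1 and -1.98 in pair 2. Both stages contributed to this gap. Among the genes that rose, 882 (81.4%) were higher in DC1 than in DC2, against 57.8% of all genes tested, and 586 (54.1%) were higher in GBE2 than in GBE1, against 46.3%. Among the genes that fell, 321 (37.7%) were higher in DC1 than in DC2 and 150 (17.6%) were higher in GBE2 than in GBE1. DC1 thus lay further than DC2 from germ band extension in most called genes, and among the falls GBE2 lay nearer than GBE1 to dorsal closure.

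Each pair can be used to choose genes that are then read in the other, which shares no library with it. Only genes tested were read, and those nearly silent before dorsal closure passed the filter on low counts mainly through both DC libraries. For them a rise in the other pair was favoured in advance, so the shares for rises are a description. In pair 1, 871 of the genes tested were 16-fold or more higher at dorsal closure on the log2(CPM + 1) scale. Of these, 870 were also higher in pair 2, against 47.2% of all genes tested, and 733 (84.2%) were 4-fold or more higher there, against 11.1%. In the other direction, pair 2 chose 348 genes, of which all were higher in pair 1, against 51.9% of all genes tested, and 343 (98.6%) were 4-fold or more higher, against 19.2%. For falls of 16-fold or more, pair 1 chose 195 genes and pair 2 chose 17. Of the 195, all were lower in pair 2, against 51.7% of all genes tested, and 162 (83.1%) by 4-fold or more, against 5.13%. All 17 were 4-fold or more lower in pair 1, against 11% of all genes tested.

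**Figure D4:**
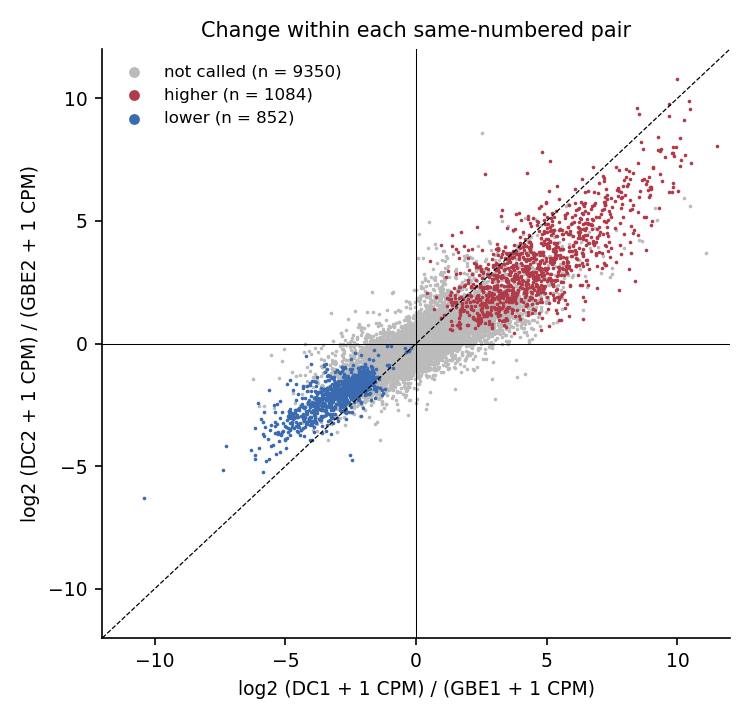
Log2 ratio of dorsal closure to germ band extension in pair 1 (horizontal axis) and pair 2 (vertical axis), with 1 CPM added to each value, for genes called higher (red), lower (blue) or not called (grey). The dashed line marks equal change, and most red and blue points show a smaller change in pair 2 than in pair 1, with pair 1 and pair 2 medians of 4.44 and 3.05 for rises and of -2.83 and -1.98 for falls.

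The identifiers with the widest gap between the stages were taken from the called genes with at least 10 counts in each library of the lower stage. They were ordered by the fold between the nearest libraries of the stages. Among 466 rises that met the rule this smallest fold had a median of 9.92 and reached 2200.3. Among 718 falls it had a median of 3.63 and reached 92.8. The gap was 10-fold or more in 232 of the rises and 62 of the falls, and 100-fold or more in 37 of the rises and 0 of the falls. These smallest folds are a description of genes already called.

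MDOA009194 had 1437 and 2901 CPM in DC1 and DC2, against 0.413 and 0.653 CPM in GBE1 and GBE2. Its log2 fold change was 11.99 ± 2.81 (SE, edgeR adjusted p = 0.024, and 0.00089 with the block). It was listed at 0 in replicate 1 of SB, CB and G, and at 0.507, 0.71 and 0.845 CPM in replicate 2 of these stages, so GBE2 was no higher than the earlier replicate 2 libraries at CB and G. The edgeR adjusted p was 0.12 without GBE1, 0.069 without GBE2 and 0.064 without DC1, and over its alternatives it ranged from 0.00031 to 0.12.

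MDOA001022 had 2220.3 and 1138 CPM in DC1 and DC2, against 0.555 and 0.523 CPM in GBE1 and GBE2. The groups lay 2050-fold apart at their nearest libraries, and the log2 fold change was 11.6 ± 1.88 (SE, edgeR adjusted p = 0.0088, and 0.00058 with the block). It passed the threshold of 0.05 in all 22 alternatives, at an adjusted p from 1.3e-15 to 0.048. Before germ band extension its highest level was 0.589 CPM, in G replicate 2.

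MDOA010623 showed the widest fall, with 0.487 and 5.62 CPM in DC1 and DC2, against 2031 and 522 CPM in GBE1 and GBE2. Its counts at dorsal closure were 41 and 233 reads. The gene was an early-onset one, at 0.585 and 0.831 CPM at SB, 1027 and 481 CPM at CB and 2108 and 2026 CPM at G. The level in GBE2 was thus already below both gastrula libraries while that in GBE1 was not. The fold of germ band extension over dorsal closure was 4168 in pair 1 and 92.8 in pair 2. The log2 fold change was -8.71 ± 1.39 (SE, edgeR adjusted p = 0.0082, and 0.0017 with the block), and the adjusted p was 0.055 when only the 4 libraries compared were fitted, the highest of its 22 alternatives (the lowest was 5.9e-13).

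MDOA014298 had 0.119 and 0.435 CPM in DC1 and DC2, against 44.4 and 31.9 CPM in GBE1 and GBE2. It followed a similar course at a lower level, at 0.405 and 0.0405 CPM at SB, 33.5 and 36.1 CPM at CB and 27.7 and 21.4 CPM at G. Its log2 fold change was -7.14 ± 1.16 (SE, edgeR adjusted p = 0.0088, and 0.000995 with the block), and the adjusted p was 0.054 without DC1, the highest of its 22 alternatives (the lowest was 3.8e-11). Both of the widest falls were thus genes that had come on after the syncytial blastoderm.

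**Figure D5:**
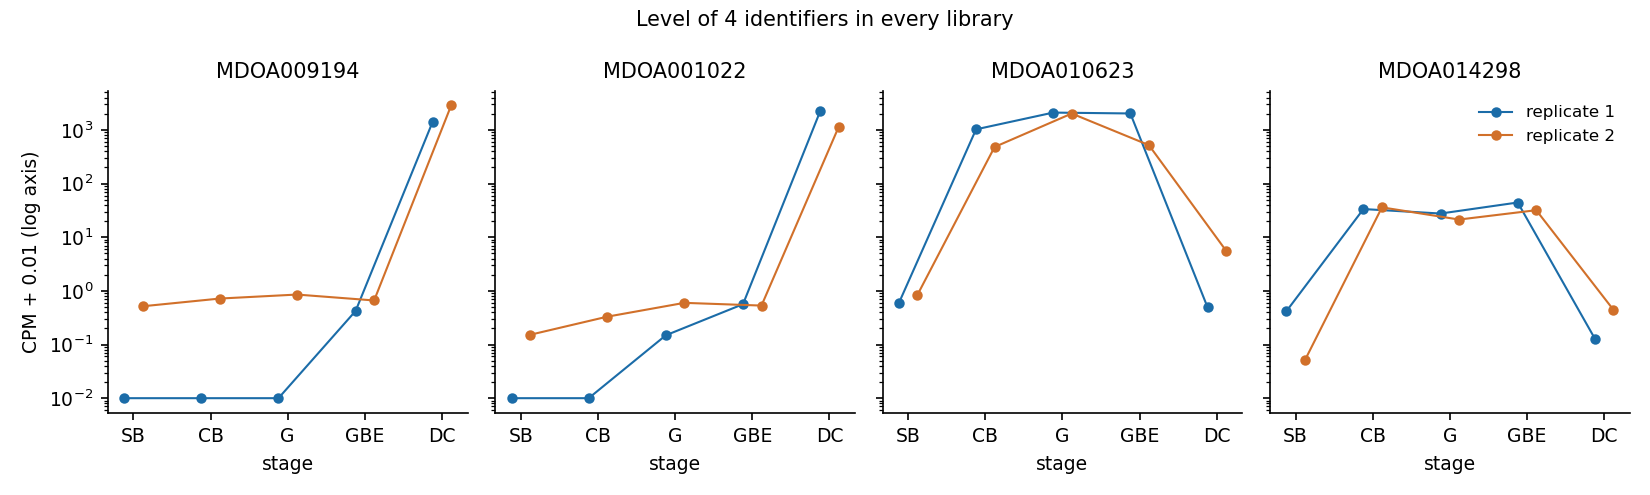
Level of 4 identifiers in all 10 libraries, as CPM + 0.01 on a log axis, by stage and replicate number. MDOA009194 and MDOA001022 stay below 1 CPM up to germ band extension and exceed 1000 CPM at dorsal closure, while MDOA010623 and MDOA014298 are high from cellular blastoderm to germ band extension and at or below 5.62 CPM at dorsal closure.

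To ask which genes moved differently at this step than at earlier ones, the change at the late step was tested against the change at steps that share no library with it. Against the step from syncytial to cellular blastoderm, the late change was more positive in 545 genes (4.83%) and more negative in 750 (6.65%) in edgeR, together 11.5%. Against the step from cellular blastoderm to gastrula it was more positive in 420 genes (3.72%) and more negative in 412 (3.65%), together 7.37%. A gene that rose at the earlier step and did not change late also counts as more negative. With the block the numbers were 1350 and 2060 (12% and 18.3%, together 30.2%) for the first of these tests and 1211 and 1794 (10.7% and 15.9%, together 26.6%) for the other. DESeq2's size factors turned the first split, with 624 more positive and 549 more negative, and gave 486 and 287 for the other.

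The 4 identifiers were picked for a large late change, which these tests use again, so their results here are not independent of that choice. All 4 passed the first test, with edgeR adjusted p of 0.047 for MDOA009194, 0.022 for MDOA001022, 0.0022 for MDOA010623 and 0.0027 for MDOA014298. Both falling identifiers had risen on the earlier step, which adds to their differences of -18.75 and -14.54 on the log2 scale. In the test against the gastrula step, MDOA009194 had an adjusted p of 0.057 (0.0032 with the block) and the other 3 had 0.03, 0.018 and 0.03 in the order above.

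The totals of these tests rested on single libraries. The total of 1295 against the first step was 433 and 293 without SB replicate 1 and 2, 399 and 669 without CB replicate 1 and 2, 848 and 814 without G replicate 1 and 2, 609 without GBE1 and 492 without DC1. The total of 832 against the gastrula step was 397 and 387 without SB replicate 1 and 2, 182 and 53 without CB replicate 1 and 2, 57 without G replicate 2, 249 without GBE1 and 113 without DC1. Without G replicate 1 edgeR called 0 genes, with 2125 at an unadjusted p under 0.05.

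The lists of the most abundant messages at the stages compared shared most of their genes. Overlaps between replicates of a stage or between other stages were not computed for comparison. Of the 100 genes with the highest mean CPM at dorsal closure, 80 were among the 100 highest at germ band extension, which is 80% of each list. Each list was picked by the mean of its own stage, which favours calls towards that stage. In the dorsal closure list 6 genes were called higher and 0 lower, against 9.6% and 7.55% of all genes tested, and 12 and 2 with the block, against 20.1% each. In this list 3 genes had a germ band extension mean under 10 CPM. In the germ band extension list 6 genes were called lower and 0 higher (17 and 0 with the block), shares at or below the same backgrounds, and 0 had a dorsal closure mean under 10 CPM. At an unadjusted p under 0.05, edgeR placed 8 genes of the dorsal closure list higher and 1 lower, and 15 genes of the germ band extension list lower and 0 higher. At that level 2258 of all 11286 genes tested were higher and 1783 (15.8%) lower. The dorsal closure list took 32.5% and 45.4% of the gene reads of DC1 and DC2, against 25.3% and 39.4% in GBE1 and GBE2, so the replicate numbers differed more than the stages.

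For the 9350 genes that were not called, the fit without the block seldom bound the change tightly. With the block 4539 genes were called in place of 1936, so part of the 9350 were called there. No intervals were computed with the block. The 95% interval of the log2 fold change, not adjusted for the number of genes, lay within 1 of no change in 18 genes (0.193%) and within 2 in 1862 (19.9%). Its median half-width was 2.09. A gene outside the called groups is therefore not shown to have held its level between germ band extension and dorsal closure.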

How the data were processed

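Each deposited file gives the raw read counts of 1 library, not normalized by the authors. STAR and HTSeq are named in the submitters' processing notes. Their versions, the genome build, the annotation and the strand setting were not given in the sources used here, so near-identical copies, antisense and overlapping genes may share or lack reads. Besides 15803 genes, a file has 5 closing rows without a gene (10.5% to 25% of reads outside genes, 5.31% to 10.7% with several alignments), left out of sizes and tests. Of the identifiers, 0 matched the RefSeq gene table, so no names, sequences or gene lists were used.

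Counts were analysed in R 4.3.3 with edgeR 4.0.16: filterByExpr by stage (11286 genes kept), TMM scaling, and a robust quasi-likelihood fit of all 10 libraries by stage (5 residual degrees of freedom), with p-values adjusted by Benjamini-Hochberg. Fold changes include edgeR's prior count. A standard error is the unshrunken change over the square root of F. CPM refers to TMM-scaled sizes. The scripts were tested on simulated data. Floors cover counting error only.

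Alternatives were other scalings and filters, DESeq2 1.42.0, limma-voom (limma 3.58.1), a replicate block, only the 4 libraries compared, a minimum fold and leaving out each library. The named identifiers are the 2 rises and 2 falls with the largest fold between the nearest libraries of the stages. They had to be called with and without the block, average at least 20 CPM in the higher stage and have at least 10 counts in each library of the lower one. The comparison, groups and rules were chosen with earlier results of these data known.

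No label ties a replicate number to a batch. The difference between replicate 2 and replicate 1 correlated across genes for all 10 combinations of stages (r from 0.32 to 0.61 in log2 CPM, and 0.57 for dorsal closure with germ band extension), above the level of 0.1 required. Libraries were therefore taken as paired by number, but the main fit has no term for the replicate number. The main calls, fitted fold changes and standard errors are thus unpaired. Blocked values (4 residual degrees of freedom) stand beside the calls. The 2 DC libraries, and likewise the 2 GBE libraries, differed beyond sampling noise (chi-square per degree of freedom 1764 and 1776).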

Additional observations from a re-analysis of the deposited data

How the results depend on the processing

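The 1084 rises and 852 falls changed by more than 1.5 times under several settings, and the cause was not tested. The replicate block gave 2274 higher and 2265 lower, 2742 and 1576 with DESeq2's size factors added, and 2331 and 2161 with total counts added. DESeq2 called 2236 genes higher and limma-voom 2202. Fitting only the 4 libraries compared gave 421 and 22, where 2 residual degrees of freedom remain. A minimum log2 fold change of 1 left 450 genes lower. Leaving out 1 library gave 182 to 1006 genes higher and 91 to 704 lower. A stage left with 1 library takes its spread from the others.

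The tests against the first step and against the gastrula step called 1295 and 832 genes, 3410 and 3005 with the replicate block, and 293 to 1233 and 0 to 802 without 1 library. With the block, the early-onset calls were 14 higher and 102 lower, those of genes present from the start 560 and 1943, of genes silent before 1288 and 11, and of the others 412 and 209. With DESeq2's size factors and the groups redrawn on them, 8 early-onset genes were higher, 312 and 486 genes present from the start were higher and lower, and 1 silent gene was lower. Without each of the DC and GBE libraries in turn, a check added after seeing the data, early-onset falls ranged from 8 to 45. Genes present from the start ranged from 38 to 283 higher and 79 to 507 lower, and rises of silent genes from 110 to 530. The switch-on count ranged from 346 to 637 and the switch-off count from 13 to 43 without 1 library, and the switch-off count was 6 with DESeq2's size factors. The 4 named identifiers kept their direction in all 22 alternatives each. Levels under about 0.1 CPM rest on few reads.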

Other observations

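The correlation of replicate differences between dorsal closure and germ band extension was higher among well expressed genes. It was 0.79 over the 3711 genes at or above 10 CPM in all 10 libraries, against 0.57 over all 11286 genes tested. Over all 10 pairs of stages it ranged from 0.52 to 0.8 in the 3711 genes. All values share the same scaling, and genes are not independent replicates.

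Of the 852 genes that fell, 381 had their highest stage mean at gastrula, 194 at syncytial blastoderm, 185 at cellular blastoderm and 92 at germ band extension. Dorsal closure was the lowest stage for 793 of them. Of the 1084 genes that rose, 1014 had their highest mean at dorsal closure and 68 at syncytial blastoderm, and their lowest mean was most often at syncytial blastoderm (493 genes). A call against germ band extension keeps dorsal closure from being the highest stage of a fall or the lowest of a rise. These counts are therefore a description, and the shares over all genes tested were not computed.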
